A study of Mus musculus with 8 samples.

Results

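The SOX genes encode transcription factors that share the HMG box, a DNA-binding domain first described in the testis-determining factor SRY. Chosen by symbol and with earlier results of these data known, the 10 genes described here, of 24346 listed in the files, are Sox2, Sox4, Sox5, Sox6, Sox7, Sox9, Sox11, Sox12, Sox17 and Sox18. They were measured in 8 RNA libraries of adipose-derived stem cells (ADSCs), cells grown out of the collagenase-digested gonadal fat of wild-type male BALB/c mice aged 12 weeks. In 4 cultures (mice 2, 3, 4 and 5) the cells had grown as a conventional 2D culture, and in the other 4 (mice 1, 4, 5 and 7) as a 3D culture in Matrigel, a basement membrane gel. The paper tried 3D media with and without conditioned media carrying Wnt3a and R-Spondin 1, and it does not name the one used for these libraries. Mice 4 and 5 contributed to both groups. Apart from the culture, no treatment or genetic change separated the groups, and the methods name no sort of the cells before culture. The gel and the medium differed together between 2D and 3D, so their parts cannot be told apart, and the time in culture of these libraries is not given in the sources used here.

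SOX proteins bind short ACAAT-like motifs in the minor groove and bend the DNA, and they usually act on a gene together with a partner factor bound beside them. The family is divided into groups by the similarity of the HMG box. The SOXC group (SOX4, SOX11 and SOX12) is active in embryonic progenitors and immature neurons. SOX9, of the SOXE group, directs cartilage formation and marks progenitors and ducts of several epithelia, and SOX5 and SOX6, of the SOXD group, lack an activation domain and assist SOX9 in cartilage. The SOXF group (SOX7, SOX17 and SOX18) acts in endothelium, SOX17 also in definitive endoderm, and SOX2, of the SOXB group, in pluripotent cells, neural precursors and foregut.

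The promoters of the SOXC genes are shown because these genes carried most of the SOX transcripts in 2D, and that of Sox5 because it is the member that fell in 3D. The sequences are RefSeq windows of 250 bases upstream of a transcription start, read in the direction of the gene (build GRCm38.p6). They lie on the minus strand at chr13:28953700-28953949 (Sox4), chr12:27342719-27342968 (Sox11), chr2:152398047-152398296 (Sox12) and chr6:143947107-143947356 (Sox5), the last at a start inside the annotated span of the gene. Capitals mark CCAAT, the box bound by the factor NF-Y, or ATTGG where it lies on the other strand.
Sox4: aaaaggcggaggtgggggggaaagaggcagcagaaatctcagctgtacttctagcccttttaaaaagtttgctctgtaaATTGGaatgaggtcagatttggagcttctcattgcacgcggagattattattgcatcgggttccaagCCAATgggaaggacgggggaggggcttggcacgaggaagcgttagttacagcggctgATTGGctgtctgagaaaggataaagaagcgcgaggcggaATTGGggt
Sox11: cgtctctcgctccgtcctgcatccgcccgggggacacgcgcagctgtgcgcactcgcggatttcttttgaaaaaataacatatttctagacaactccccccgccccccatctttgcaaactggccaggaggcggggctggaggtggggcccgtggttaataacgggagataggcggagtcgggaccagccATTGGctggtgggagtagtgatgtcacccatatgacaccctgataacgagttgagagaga
Sox12: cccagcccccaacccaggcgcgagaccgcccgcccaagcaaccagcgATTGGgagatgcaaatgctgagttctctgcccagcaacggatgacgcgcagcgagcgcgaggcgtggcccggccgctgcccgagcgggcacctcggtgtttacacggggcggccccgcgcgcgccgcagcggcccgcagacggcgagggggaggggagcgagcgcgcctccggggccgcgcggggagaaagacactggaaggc
Sox5: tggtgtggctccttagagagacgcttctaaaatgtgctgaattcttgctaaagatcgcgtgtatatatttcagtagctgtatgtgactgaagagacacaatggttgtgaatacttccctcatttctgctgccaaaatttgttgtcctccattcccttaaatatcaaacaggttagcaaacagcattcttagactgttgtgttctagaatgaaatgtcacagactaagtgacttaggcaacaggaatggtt
The Sox4 window held 4 such boxes and those of Sox11 and Sox12 held 1 each, whereas the Sox5 window held 0. Among all 32851 windows of this length, 33.9% held at least 1. The GC content was 50.8% in the Sox4 window, 58.0% in that of Sox11, 74.4% in that of Sox12 and 39.6% in that of Sox5, against a median of 52.4%. The windows of Sox4, Sox11 and Sox12 held 11, 17 and 35 CpG dinucleotides and that of Sox5 held 3, against a median of 6. The letters ACAAT, read on both strands, occurred once in the Sox5 window and in 27.7% of all windows. Windows were found for 6 of the 10 genes (none for Sox7, Sox9, Sox17 or Sox18), 11 in all with 6 of them from Sox6. CCAAT was present in 6 of these 11 and GGGCGG, the box bound by SP1, in 4 of 11 against 32.7% of all windows. These matches describe letters and not bound sites, and which start of Sox5 these cultures use was not tested.

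Levels are given as FPKM, fragments scaled to the length of the transcript and to the number of mapped fragments, after quantile normalization across the 8 libraries. The depth, read from the spacing of the lowest FPKM values, was 16.4 M to 17.3 M fragments in 2D and 14.5 M to 15.6 M in 3D, and 15378 to 16134 genes were above 0 per library. Stromal markers summed to between 2098 and 4530 FPKM in 2D and to between 4.78 and 8.71 in 3D, with 11 of 12 called lower and Pdgfrb, Dcn and Lum at 0 in every 3D library, so the 3D libraries lack the stromal markers of their label. Epithelial markers summed to between 31.95 and 693.9 FPKM in 2D and to between 2845 and 3318 in 3D, with 14 of 15 called higher. Over all genes, 21.2% were called higher and 20.3% lower. Mesothelial markers stood at 816.2 and 2002 FPKM in 2D for mice 3 and 4, at 1.99 and 0.525 for mice 2 and 5 and at 1.57 to 33.7 in 3D, and 0 of 5 were called by limma (also 0 at an unadjusted p below 0.05), and the part of this in the results was not tested. In bulk RNA, fewer cells of a type and less RNA per cell cannot be told apart.

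Of the 10 genes, 9 were above 0 in at least 1 library and could be tested, by limma on log2(FPKM + 1) with adjustment over all 18862 genes. Sox9 and Sox7 were higher in 3D and Sox5 was lower, and 6 did not pass. This is 33.3% of the 9, against 41.5% of all genes (21.2% higher and 20.3% lower), so the share of calls was not above that of genes in general. All 3D libraries stood above all 2D libraries for 2 of the 9 (21.6% of all genes) and below them for 1 (20.9% of all genes). The median log2 fold change was 0.30 over the 9 genes and 0.00 over all genes.

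**Figure D1:**
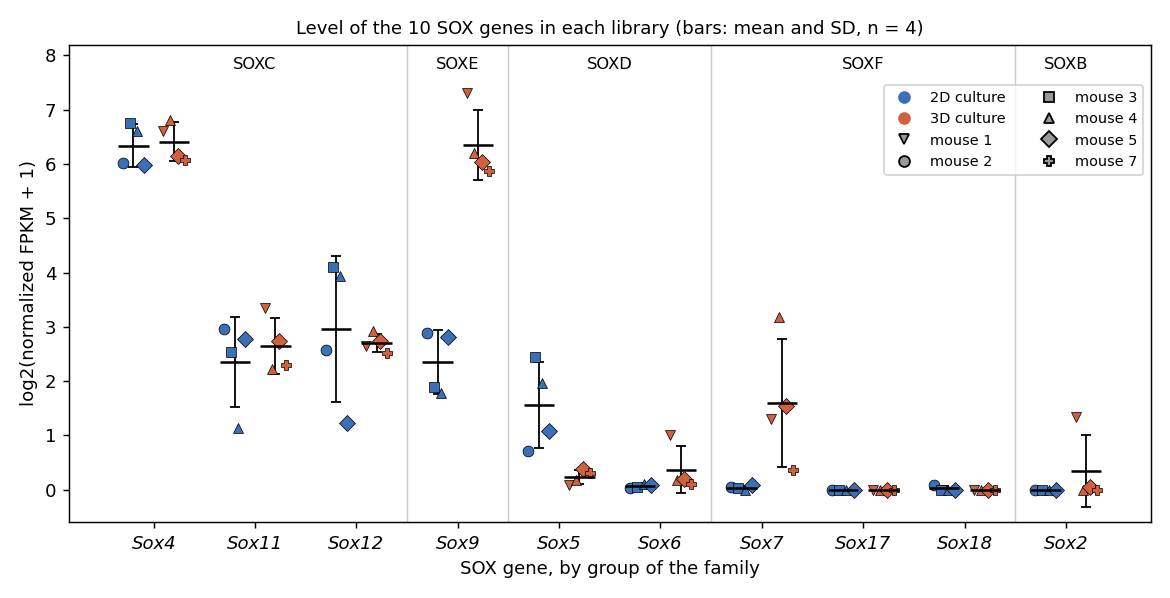
Level of each of the 10 SOX genes, as log2(normalized FPKM + 1), in the 4 libraries of 2D and the 4 of 3D cultures, with symbols for the mouse, a line at the mean and bars for the SD. The groups stand apart for Sox9, Sox5 and Sox7, while Sox4 is high in all 8 libraries and Sox17 is at 0 throughout.

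Among the SOXC genes, Sox4 was the most abundant member in 7 of the 8 libraries and did not differ detectably between the cultures. SOX4 is known from lymphocyte development and from the mesenchymal conversion of epithelia. Sox4 (chr13:28948919-28953713, minus strand) stood at 63.9, 107, 96.0 and 62.6 FPKM in 2D (mice 2, 3, 4 and 5) and at 96.7, 111, 69.9 and 66.6 FPKM in 3D (mice 1, 4, 5 and 7). The groups overlapped and the highest library was 1.77 times the lowest. The means were 82.4 ± 22.5 FPKM and 86.1 ± 21.4 FPKM (SD, n = 4), and the log2 fold change was 0.07 (95% interval -0.48 to 0.62, limma, adjusted p = 0.828). Without quantile normalization the change was -0.45 (limma, adjusted p = 0.124), and the 1062 genes with a mean of 50 to 150 FPKM had a median of -0.57 without it and -0.08 with it. In 2D, the libraries with the mesothelial markers (mice 3 and 4) held the most Sox4. Without them the change was 0.39 (limma, adjusted p = 0.219). Within a library, Sox4 ranked between the percentiles 93.6 and 96.5 of the genes tested.

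Sox11, a gene of immature neurons and embryonic mesenchyme (chr12:27334264-27342574, minus strand), was found at 6.83, 4.82, 1.19 and 5.82 FPKM in 2D and at 9.18, 3.65, 5.67 and 3.93 FPKM in 3D. The groups overlapped, with a log2 fold change of 0.30 (95% interval -0.74 to 1.34, limma, adjusted p = 0.616). Sox12, the third gene of the group (chr2:152393611-152398063, minus strand), was at 4.97, 16.1, 14.4 and 1.33 FPKM in 2D and at 5.28, 6.56, 5.65 and 4.76 FPKM in 3D. Its libraries thus spread 12.1-fold in 2D and 1.38-fold in 3D. The log2 fold change was -0.25 (95% interval -1.66 to 1.16, limma, adjusted p = 0.757). The 2D libraries of mice 3 and 4, which hold the mesothelial markers, had the highest Sox12 of all 8. Without them the change was 0.81 (limma, adjusted p = 0.152). Between the 2 cultures of the same animal, Sox12 was lower in 3D for mouse 4 (log2 difference -1.02) and higher for mouse 5 (1.51).

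**Figure D2:**
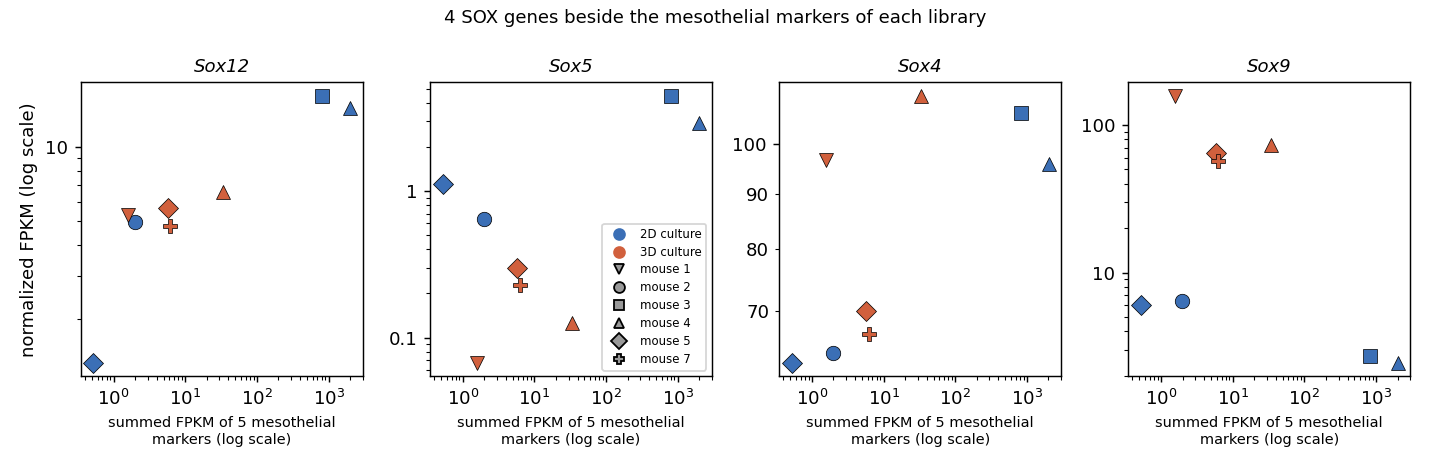
Normalized FPKM of Sox12, Sox5, Sox4 and Sox9 against the summed FPKM of 5 mesothelial markers in each library, both on log scales, coloured by culture and with a symbol per mouse. The 2D libraries of mice 3 and 4 stand at 816.2 and 2002 FPKM of the markers. They hold more Sox12, Sox5 and Sox4 and less Sox9 than the 2D libraries of mice 2 and 5.

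Sox9 had the clearest difference among the 10 genes. It (chr11:112782224-112787760, plus strand) was found at 6.43, 2.72, 2.44 and 6.07 FPKM in 2D and at 157.5, 72.7, 64.5 and 57.3 FPKM in 3D. Every 3D library was above every 2D library, the lowest of them 8.92-fold above the highest of 2D. The means were 4.42 ± 2.13 FPKM and 88.0 ± 46.8 FPKM (SD, n = 4), a 19.9-fold difference, and 14.7-fold without the 3D library of mouse 1, which stood above the other 3. The log2 fold change was 4.00 (95% interval 3.09 to 4.92, limma, adjusted p = 0.000166), and with any 1 library left out it was 3.74 to 4.21. In the same animals, the log2 difference was 4.42 for mouse 4 and 3.21 for mouse 5. Fitted with the mouse as a block, at 1 residual degree of freedom and with calls for 0 genes (5216 at an unadjusted p below 0.05), the change was 3.82 (limma, adjusted p = 0.118, unadjusted p = 0.0108). Within a library, Sox9 moved from percentiles 45.4 to 57.5 in 2D to percentiles 92.9 to 97.6 in 3D. The epithelial marker sums moved in the same direction, and their part in the rise of Sox9 was not tested.

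Of the SOXD group, Sox5 and Sox6, which act with Sox9 in cartilage, were not called higher with it, whereas Sox13, described below, was. Sox5 (chr6:143828425-144781977, minus strand) was at 0.647, 4.47, 2.93 and 1.12 FPKM in 2D and at 0.0670, 0.126, 0.298 and 0.230 FPKM in 3D. Every 3D library was below every 2D library, and the 2D libraries with mesothelial markers were the highest. The means of 2.29 ± 1.75 FPKM and 0.180 ± 0.104 FPKM (SD, n = 4) differed 12.7-fold, and the log2 fold change was -1.32 (95% interval -2.16 to -0.48, limma, adjusted p = 0.0209). Without the 2D libraries of mice 3 and 4 it was -0.68 (limma, adjusted p = 0.0101). The call rests close to the threshold, since limma gave an adjusted p of 0.05003 on the values as deposited, 0.0508 without the 2D library of mouse 4, 0.0501 and 0.0510 without the 3D libraries of mice 1 and 4, and 0.227 with the mouse as a block. The antisense transcript Sox5os3 overlaps the gene and reached at most 0.270 FPKM, and the strand setting of the counting is not given in the sources used here, so reads of the pair may not be separable.

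Sox6 (chr7:115470872-116038796, minus strand) was at 0.0270, 0.0289, 0.0755 and 0.0568 FPKM in 2D and at 1.02, 0.125, 0.145 and 0.0706 FPKM in 3D. The 3D library of mouse 1 stood apart and the other libraries were all low, with a log2 fold change of 0.30 (95% interval -0.15 to 0.75, limma, adjusted p = 0.249). Sox6 was thus not called, and without the 3D library of mouse 1 the change was 0.08 (limma, adjusted p = 0.0798). Over the 13 alternatives in which Sox6 could be tested the change was 0.08 to 1.14.

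Of the SOXF genes, Sox7 was the only member with a level above 0.1 FPKM in any library. Sox7, which marks early endothelial and blood progenitors and primitive endoderm (chr14:63943673-63950732, plus strand), was at 0.0329, 0.0178, 0 and 0.0622 FPKM in 2D, each of which rests on at most 3 fragments. In 3D it was at 1.47, 8.12, 1.91 and 0.284 FPKM, all above 2D but spread 28.6-fold. The normalized mean in 3D was 2.95 ± 3.52 FPKM (SD, n = 4). Bounds on a fold, here and for the genes that follow, compare the deposited FPKM, before normalization, with the level that 3 fragments would give in a library. For Sox7 the deposited mean of 3.20 FPKM was at least 51.2-fold higher than that level, at least 23.6-fold without mouse 4, and at least 4.45-fold for the lowest 3D library alone. The log2 fold change was 1.56 (95% interval 0.34 to 2.78, limma, adjusted p = 0.0458). The call was lost (limma) without any 1 of the 2D libraries (adjusted p = 0.0857, 0.0851, 0.0854 and 0.0821 for mice 2, 3, 4 and 5), without the 3D library of mouse 1 (0.0683) or mouse 5 (0.0879), without an intensity trend in the variance (0.0543) and with the mouse as a block (0.192). It was also lost without the 2D libraries of mice 3 and 4 together (0.160).

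Sox17 (chr1:4490931-4497354, minus strand) was listed at 0 in all 8 libraries, where 3 fragments would give up to 0.0636 FPKM. Sox18, a gene of blood and lymphatic vessels (chr2:181669836-181671640, minus strand), was at 0.0645 FPKM in the 2D library of mouse 2, which is about 1.1 fragments, and at 0 in the other 7. Neither was detectable at this depth as a transcript of these cultures. Endothelial markers, which the SOXF genes accompany in vessels, summed to 1.07 to 6.79 FPKM in 2D and to 0.0480 to 0.202 FPKM in 3D, with Cdh5 at 0 in every 3D library and 0 of 5 called by limma (2 lower at an unadjusted p below 0.05). The count called lower was 1 without the 2D library of mouse 3, 2 without that of mouse 4 or mouse 5, and 4 without those of mice 3 and 4 together.

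Sox2 (chr3:34650405-34652461, plus strand) was listed at 0 in all 4 libraries of 2D and in the 3D libraries of mice 4 and 7, at 0.0317 FPKM in that of mouse 5 and at 1.53 FPKM in that of mouse 1. In the last library Sox2 rests on about 60.1 fragments, and its deposited value is 20.02-fold above the level of 3 fragments. Only 1 of 4 libraries of 3D therefore held Sox2 beyond a few fragments, and the log2 fold change was 0.35 (95% interval -0.34 to 1.03, limma, adjusted p = 0.387). Sox2 lies within the span of the long noncoding RNA Sox2ot on the same strand, which stood at most at 0.0455 FPKM, in the same library.

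**Figure D3:**
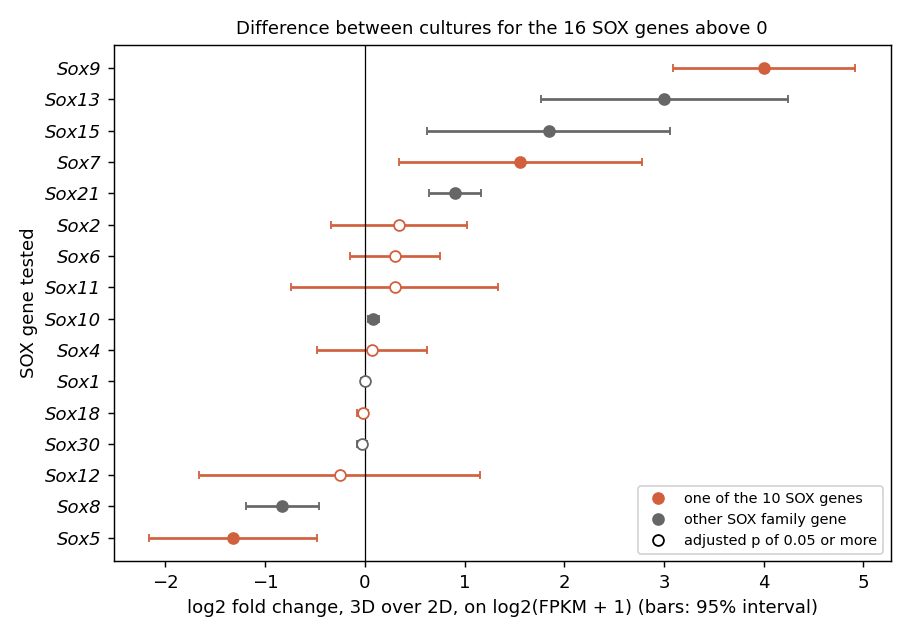
Log2 fold change of 3D over 2D, on the scale of log2(normalized FPKM + 1), with 95% intervals, for the 16 genes of the SOX family above 0. Filled points passed an adjusted p of 0.05 in limma, and Sox9 (4.00) and Sox13 (3.00) lie farthest to the right and Sox5 (-1.32) farthest to the left.

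Set against each other, the SOX transcripts changed in make-up. Of the summed deposited FPKM of all 20 SOX genes listed, Sox4 made up 80.4% to 83.6% in 2D and 27.9% to 45.0% in 3D. Sox9 made up 1.66% to 5.995% in 2D and 30.6% to 45.3% in 3D. The SOXC group together held 89.1% to 95.3% in 2D and 33.5% to 51.4% in 3D. The normalized sum of the 20 genes was 81.8 to 137 FPKM in 2D and 145.6 to 331.8 FPKM in 3D. For each of these shares the 2 cultures did not overlap.

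The ratio of Sox9 to Sox4, taken on the deposited FPKM, is free of any factor that scales a whole library. In 2D it was 0.0720, 0.0206, 0.0206 and 0.0728, and in 3D 1.63, 0.681, 0.933 and 0.868. Only in the 3D library of mouse 1 was Sox9 above Sox4. The mean log2 ratio was -4.69 ± 1.05 in 2D and -0.04 ± 0.53 in 3D (SD, n = 4), a difference of 4.66. This pair was chosen after the values of both genes were seen, so the difference is a description without a test. With any 1 library left out the difference was 4.35 to 4.96, and on the normalized values it was 4.26.

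**Figure D4:**
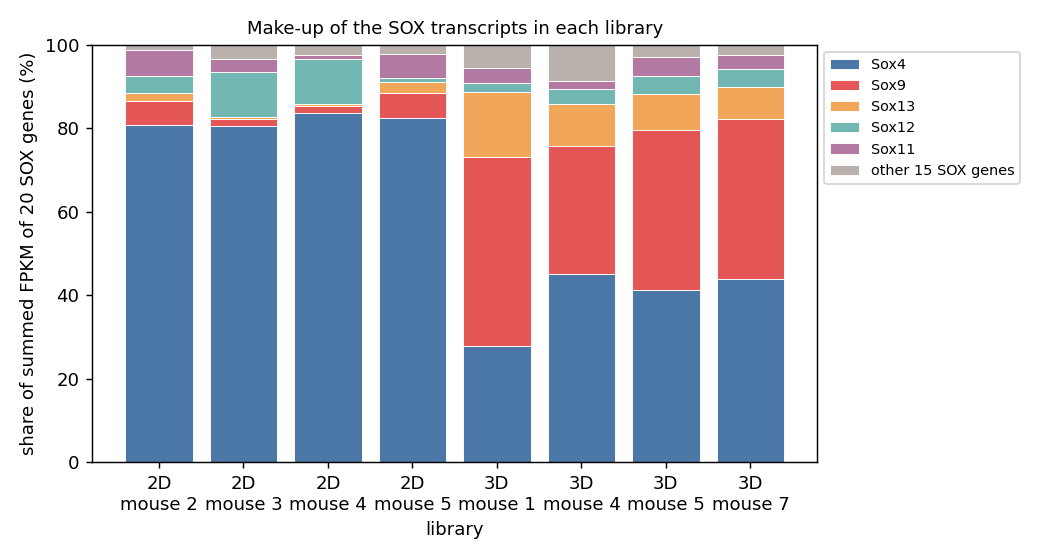
Share of the summed deposited FPKM of 20 SOX genes held by Sox4, Sox9, Sox13, Sox12, Sox11 and the other 15, for each library. Sox4 fills 80.4% to 83.6% of each 2D bar, and Sox9 takes 30.6% to 45.3% of each 3D bar.

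The 10 other SOX genes of the files were followed to place these changes in the family. Of the 7 above 0, 4 were higher in 3D (Sox10, Sox13, Sox15 and Sox21) and 1 was lower (Sox8), beside 21.2% and 20.3% of all genes. The count higher was 2 without the 2D library of mouse 2 or mouse 4 or the 3D library of mouse 4. Sox13, the third gene of the SOXD group, was at 2.28, 0.909, 0.559 and 2.90 FPKM in 2D and at 49.7, 21.5, 11.99 and 9.66 FPKM in 3D. Unlike Sox5, it was higher in every 3D library, 14.0-fold in means and 8.65-fold without the 3D library of mouse 1, with a log2 fold change of 3.00 (SE 0.53, limma, adjusted p = 0.00305). Sox21, a repressor of the SOXB group found in neural precursors and foregut epithelium, was listed at 0 in every 2D library and at 1.12, 1.01, 0.467 and 0.965 FPKM in 3D. On the deposited values (mean 1.058 FPKM in 3D) it was at least 19.5-fold higher (normalized log2 fold change 0.91, SE 0.11, limma, adjusted p = 0.000502).

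Sox8, the closest relative of Sox9 and Sox10, moved against Sox9. It was at 0.826, 0.796, 0.432 and 1.51 FPKM in 2D and at 0.137, 0, 0.0480 and 0 FPKM in 3D (log2 fold change -0.83, SE 0.16, limma, adjusted p = 0.00408). Of the 4 values of Sox8 in 3D, 3 rest on at most 3 fragments. Sox10, the SOXE gene of neural crest and Schwann cells, was called higher (log2 fold change 0.08, limma, adjusted p = 0.0257) but reached at most 0.0865 FPKM, about 4.3 fragments, in 3D and 0.0482 FPKM in 2D. That call was lost (limma) without the 2D library of mouse 2, 4 or 5 or the 3D library of mouse 4, 5 or 7 (adjusted p = 0.0612 to 0.0670) and without an intensity trend (0.127). Sox15 was at 0.200, 0.277, 0.0455 and 0.296 FPKM in 2D and at 8.01, 7.11, 0.795 and 1.62 FPKM in 3D (log2 fold change 1.84, SE 0.53, limma, adjusted p = 0.0247). Of the 4 values of Sox15 in 2D, 3 rest on at most 3 fragments. Its call was lost (limma) without the 2D libraries of mouse 2 (adjusted p = 0.0532) or mouse 4 (0.0556), without the 3D library of mouse 4 (0.0595), or without the 2D libraries of mice 3 and 4 together (0.109). Sox1 and Sox30 were not called, and Sox3, Sox14 and Sry were listed at 0 in all 8 libraries.

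Genes that the SOX factors are known to act on, or to be found with, were counted in lists chosen with earlier results of these data known. Of 13 genes of cartilage that SOX9 binds with SOX5 and SOX6, 10 were above 0, of which 1 was higher in 3D and 3 were lower, beside 21.2% and 20.3% of all genes. Acan, the core proteoglycan of cartilage, and Hapln1, which links it to hyaluronan, were listed at 0 in all 8 libraries. Col11a1, a fibrillar collagen chain, was at 83.1, 35.8, 20.6 and 136.8 FPKM in 2D and at no more than 0.00921 FPKM in 3D. On the deposited values (mean 84.2 FPKM in 2D) it was at least 3127-fold lower in 3D, and at least 2026-fold without the 2D library of mouse 5 (normalized log2 fold change -5.78, limma, adjusted p = 0.000126). Col11a2 was lower (1.27 ± 0.147 against 0.587 ± 0.270 FPKM, SD, n = 4, limma, adjusted p = 0.0141), but not on the values as deposited (log2 fold change -0.28, limma, adjusted p = 0.204) or without the 2D libraries of mice 3 and 4 (-0.48, limma, adjusted p = 0.0736). Lect1, which encodes the cartilage protein chondromodulin, was listed at 0 in 2D and at 0.434 to 4.08 FPKM in 3D (log2 fold change 1.24, limma, adjusted p = 0.0296), a call lost without any 1 of the 2D libraries (adjusted p = 0.0588 to 0.0605) or the 3D library of mouse 7 (0.0702).

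Among 10 genes found with SOX9 in ducts, 5 were higher in 3D and 0 were lower (limma, also 0 lower at an unadjusted p below 0.05), beside 21.2% and 20.3% of all genes. Krt19 and Epcam, which are among the 5, are also on the list of epithelial markers. Prom1, a membrane glycoprotein of apical protrusions, was at 355, 399, 535 and 520 FPKM in 3D and at or under 0.0242 FPKM in 2D. On the deposited values (mean 351.6 FPKM in 3D) it was at least 6968-fold higher (normalized log2 fold change 8.79, limma, adjusted p = 2.38e-08). Epcam, an epithelial adhesion molecule, was at 264.9 to 494 FPKM in 3D and, on the deposited values (mean 283.3 FPKM), at least 2801-fold higher (normalized log2 fold change 8.37, limma, adjusted p = 1.15e-07).

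Of 13 endoderm genes found with SOX17, 3 were higher and 1 was lower, beside 21.2% and 20.3% of all genes. The pioneer factor Foxa1 was at 1.80 to 3.54 FPKM in 3D and, on the deposited values (mean 3.30 FPKM), at least 51.1-fold higher (normalized log2 fold change 1.93, limma, adjusted p = 6.99e-05). Gata6, a factor of endoderm and mesothelium, was at 5.49 to 44.2 FPKM in 2D, with the highest values in mice 3 and 4, and at 0 in every 3D library. On the deposited values (mean 22.9 FPKM in 2D) it was at least 420-fold lower, and at least 264-fold without the 2D library of mouse 4 (normalized log2 fold change -4.07, limma, adjusted p = 0.00140).

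Of 14 endothelial genes found with the SOXF factors, 0 were higher by limma (also 0 at an unadjusted p below 0.05) and 1 was lower, beside 21.2% and 20.3% of all genes. The count lower was 3 at an unadjusted p below 0.05, 1 to 3 adjusted with any 1 library left out and 5 without the 2D libraries of mice 3 and 4. Leaving out mouse 3 of 2D gave 2 lower, and leaving out mouse 4 or mouse 5 of 2D gave 3. The 1 called was Lyve1, a receptor of lymphatic vessels and some macrophages, at 0.104 to 0.255 FPKM in 2D and at 0 in 3D, a low level in both. Of 13 pluripotency genes found with SOX2, 6 were listed at 0 throughout, 1 was higher and 2 were lower, beside 21.2% and 20.3% of all genes. Tfcp2l1, a factor of the naive state that is also expressed in kidney ducts, was at 6.12, 83.9, 57.8 and 21.2 FPKM in 3D and at or under 0.670 FPKM in 2D (log2 fold change 4.63, limma, adjusted p = 0.00174). Nanog was at 0.414 to 0.698 FPKM in 2D and at or under 0.0364 FPKM in 3D (log2 fold change -0.63, limma, adjusted p = 0.000148). Lefty1, an inhibitor of NODAL signalling, was at 0.977 to 5.94 FPKM in 2D and at or under 0.0791 FPKM in 3D (log2 fold change -1.85, limma, adjusted p = 0.0137).

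Of 7 SOXC-bound differentiation genes, 1 was higher and 2 were lower, beside 21.2% and 20.3% of all genes. The neuronal tubulin Tubb3 was at 95.7, 34.8, 31.6 and 101.8 FPKM in 2D and at 0.0855, 0.519, 0.204 and 0.252 FPKM in 3D (log2 fold change -5.54, limma, adjusted p = 4.39e-05). Tead2, a DNA-binding partner of YAP, was lower as well (20.4 ± 3.86 against 2.18 ± 0.992 FPKM, SD, n = 4, log2 fold change -2.78, limma, adjusted p = 8.01e-05). Map2, a microtubule protein of dendrites, was higher (0.144 ± 0.105 against 8.17 ± 2.25 FPKM, SD, n = 4, log2 fold change 2.98, limma, adjusted p = 2.16e-05).

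Among 22 partners and cofactors of SOX proteins, 6 were higher and 1 was lower (9 and 2 at an unadjusted p below 0.05), beside 21.2% and 20.3% of all genes. The count lower was 0 to 2 with any 1 library left out, 2 of them without the 2D library of mouse 5, and 3 without the 2D libraries of mice 3 and 4. Pou3f3, a POU factor of the class that pairs with SOX proteins on DNA, was at 83.1, 43.2, 58.1 and 53.8 FPKM in 3D and at or under 0.0346 FPKM in 2D. On the deposited values (mean 50.3 FPKM in 3D) it was at least 1807-fold higher (normalized log2 fold change 5.87, limma, adjusted p = 7.05e-07). Among the HMG-box factors of Wnt signalling on this list, Tcf7 and Lef1 moved apart, and Tcf7l1 and Tcf7l2 were not called. Tcf7 was higher in 3D (0.550 ± 0.247 against 7.02 ± 3.33 FPKM, SD, n = 4, log2 fold change 2.31, limma, adjusted p = 0.000432). Lef1 was lower (2.21 ± 2.20 against 0.0351 ± 0.0256 FPKM, SD, n = 4, log2 fold change -1.37, limma, adjusted p = 0.0435), a call lost without the 2D library of mouse 2 (adjusted p = 0.0549) or mouse 5 (0.0978), without any 1 of the 3D libraries (0.0836, 0.0902, 0.0879 and 0.0837 for mice 1, 4, 5 and 7) and without an intensity trend (0.0519).

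**Figure D5:**
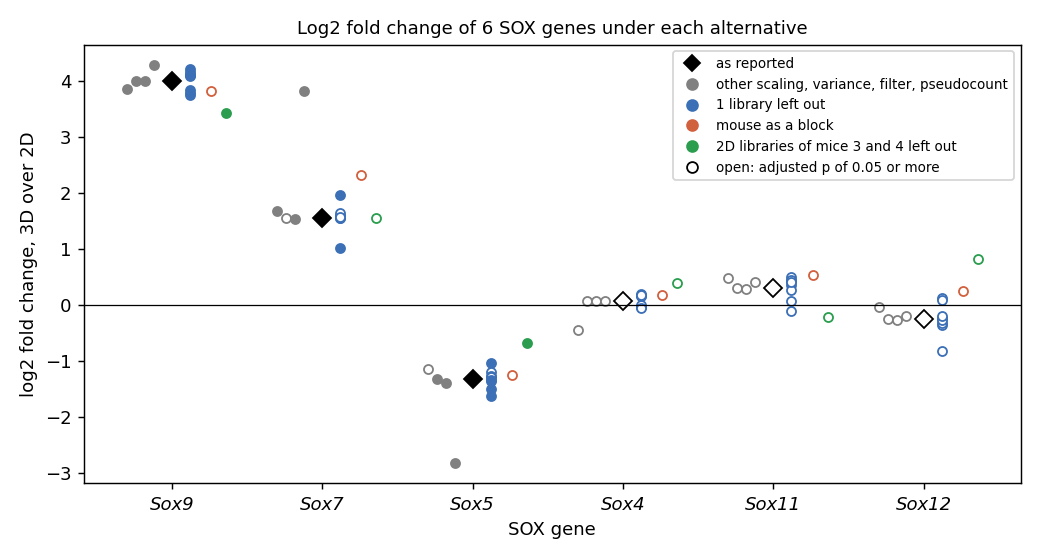
Log2 fold change of 3D over 2D for 6 SOX genes under each way of computing it, with filled symbols for an adjusted p below 0.05 in limma. Sox9 stays between 3.43 and 4.29, Sox7 and Sox5 keep their sign but not always their call, and Sox4, Sox11 and Sox12 lie on both sides of 0.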

How the data were processed

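RNA of 4 libraries of 2D and 4 of 3D cultures was measured. The authors depleted ribosomal RNA, made directional libraries, trimmed the paired-end reads, mapped them with TopHat to mm10 and computed FPKM with Cufflinks. The deposited FPKM values have no read counts and are not yet quantile normalized (upper quartiles 10.7 to 11.4). The annotation is not given in the sources used here.

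Genes at 0 in every library (5484) were left out, and 18862 were quantile normalized, converted to log2(FPKM + 1) and fitted with limma 3.58.1 (R 4.3.3) with an intensity trend, 3D against 2D without covariates. A gene was called at a Benjamini-Hochberg adjusted p below 0.05. Such log2 fold changes understate the change of low genes. P-values weigh the difference between the cultures against the spread between these libraries. The fit treats all libraries as independent, although some share an animal.

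The depth was estimated from 801 single-transcript genes of at least 3000 nt (GENCODE M21, to which 23268 genes or 95.6% were matched by symbol), where 66.7% to 79.8% of low values lay within 0.15 of a whole fragment. Bounds on folds set deposited FPKM against 3 fragments per library and cover counting error only.

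All SOX genes are named, and of every other list those called genes that rose most and those that fell most, at most 2 in each direction, and 1 gene that this rule covers is not reported here. The members and lists were chosen with earlier results of these data known. Mice 4 and 5 are in both cultures, so their libraries are paired by animal. Across 12583 genes, the correlation between the 2D and 3D libraries of an animal, each centred on its culture, was -0.053 (mouse 4) and -0.113 (mouse 5). The calls and fold changes were recomputed, wherever a gene could still be tested, without quantile normalization, with a constant prior variance, on genes averaging 1 FPKM or more, with 0.1 in place of 1 as pseudocount, with a block for the animal (4 libraries) and with each library left out. Leaving out the 2D libraries of mice 3 and 4 together was chosen after seeing the data.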

Additional observations from a re-analysis of the deposited data

Results flagged for a closer look

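In 13 of 60 groups of 4 libraries, the highest library stood apart from the other 3 by more than Dixon's 95% critical value (0.829). The rule was applied to normalized FPKM and not to the log2 values of the fits. Chance gives about 1 group in 20 for normally distributed values, and the distribution of FPKM was not tested. Among the 10 SOX genes, the 3D library of mouse 1 stood apart for Sox9 (157.5 FPKM, the others 57.3 to 72.7), Sox2 (1.53 FPKM, the others 0 to 0.0317) and Sox6 (1.02 FPKM, the others 0.0706 to 0.145). Tcf7 stood apart in the same library (11.99 FPKM, the others 4.89 to 5.79), and also in the 2D library of mouse 2 (0.918 FPKM, the others 0.399 to 0.470). In the other 8 all other libraries of the group are at 0, so the highest stands apart by construction and the chance rate does not apply. They are Sox18 (0.0645 FPKM), Epcam (0.0504 FPKM) and Pou3f3 (0.0346 FPKM) for mouse 2 in 2D, Sox10 (0.0482 FPKM) and Prom1 (0.0242 FPKM) for mouse 3 in 2D, Sox1 (0.00418 FPKM) for mouse 1 in 3D, and Sox30 (0.0211 FPKM) and Col11a1 (0.00921 FPKM) for mouse 7 in 3D.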

How the results depend on the processing

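Sox9 kept its direction under all 14 alternatives (log2 fold change 3.43 to 4.29) and its call under 13, all but the mouse as a block, and Sox5 and Sox7 kept their direction under all 14. Of the 10 SOX genes, 2 were higher in 3D, and 1 was higher without the intensity trend, 1 without the 2D libraries of mice 3 and 4, 0 with the replicate block and 1 to 2 with any 1 library left out. The lower count of 1 became 0 on the values as deposited, 0 with the block and 0 to 1 with any 1 library left out. With the block, the counts over all genes (4000 higher, 3823 lower) and over the listed genes (20 higher, 11 lower) were all 0, with 5216 of all genes at an unadjusted p below 0.05 in limma. Without a library the counts over all genes were 3393 to 4051 higher and 3204 to 3835 lower. The listed lower count was 5 among genes averaging 1 FPKM or more, and 19 without the 2D libraries of mice 3 and 4. The genes that were not called changed sign in places. Sox4 was at -0.45 as deposited, 0.39 without the 2D libraries of mice 3 and 4, and -0.0625 to 0.20 with any 1 library left out. Sox12 was at 0.24 with the block, 0.81 without the 2D libraries of mice 3 and 4, and -0.82 to 0.13 with any 1 library left out. Sox11 was at -0.22 without those 2 libraries and at -0.11 to 0.50 with any 1 left out. The cause was not tested. The block leaves 1 residual degree of freedom, so a call lost under it says nothing of the size of the effect. Sox1, Sox2, Sox6, Sox8, Sox10, Sox18, Sox21, Sox30, Lect1, Col11a2, Lyve1, Nanog and Lef1 average under 1 FPKM as deposited and have no value with that filter (nor have Sox1 and Sox18 without the 1 library that holds them), the ratio of Sox9 to Sox4 was recomputed only on normalized values and with each library left out, and the shares and sums were not recomputed. At this depth Sox18, and Sox2, Sox7 and Sox21 in 2D, rest on 3 fragments or fewer. So do Sox1, Sox10 in 2D and Sox30 in 3D, and 3 of the 4 libraries for Sox15 in 2D and for Sox8 in 3D.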

Other observations

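Schwann and melanocyte markers summed to 2.61 to 5.09 FPKM in 2D and to 19.0 to 29.6 FPKM in 3D. Of the 7 above 0, 2 were called higher by limma (Sox10 and Erbb3), 1 was lower (Mitf) and 4 were not called. These counts, and those of the markers that follow, stand beside 21.2% higher and 20.3% lower over all genes. Sox10 reached at most 0.0865 FPKM, about 4.3 fragments, in 3D, and the count higher was 1 to 2 with any 1 library left out. Macrophage markers summed to 2.07 to 21.3 FPKM in 2D and to 6.25 to 42.3 FPKM in 3D, with Cd68 the 1 of 5 called, higher in 3D. Adgre1 and Lyz2 of the same list were at 0 in every 3D library, and 1 of the 5 was lower at an unadjusted p below 0.05 (limma). Of the adipocyte markers, Adipoq and Lep were listed at 0 in all 8 libraries, and Lpl was lower in 3D, the 1 of 3 called.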
